A study of Lactuca sativa with 12 samples.

Results

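LsCBF14 is a single gene of lettuce, followed here through 7 d of cold. It was taken as the row of the deposited expression table whose gene identifier begins with Lsat_1_v5_gn_9_114720, written Ls9g114720.1 below, and it is 1 of the 23933 genes in that table and 1 of the 22306 genes tested. It was selected on its values over the 4 time-points, in which it was highest at 7 d, so its own levels are given as a description without a test. The identifier places it on linkage group 9. Its position in base pairs, exons and untranslated regions are not given here.

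CBF/DREB1 proteins are transcription factors with an AP2 DNA-binding domain that recognize the CRT/DRE element in promoters. In Arabidopsis, CBF1, CBF2 and CBF3 are transcribed within hours of a move to low temperature, and their products switch on COR genes, which encode dehydrins, enzymes of sugar metabolism and other proteins linked to cold acclimation. Arabidopsis CBF4 and the DDF genes belong to the same subfamily and are better known from drought or salt stress than from cold. LsCBF14 was named by the study as a member of this family from its sequence, and what its protein does in lettuce was not measured in these samples.

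The study measured LsCBF14 by qRT-PCR with a primer pair of its own, and this pair is shown because these oligos were designed for the gene described here. Both primers are 26 bases long and are written 5′ to 3′ in lower case, with no base set apart.
LsCBF14 forward primer: cattgatcgaaccgtatagcccattt
LsCBF14 reverse primer: cttcaacagctgtattcacgacggtg
The qRT-PCR values themselves were not analysed here.

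RNA-seq was done on aerial tissue of ‘Salinas’, a crisphead cultivar, at 4 time-points with 3 replicates each, 12 samples in all. Plants at 0 h were warm-grown at 20 °C with 350 to 400 µmol m−2 s−1 of light, and 18-day-old plants were then held at 4 °C with about 100 µmol m−2 s−1 for 4 h, 24 h or 7 d, with a 16-h photoperiod in both conditions. All plants were of this cultivar. Temperature and light thus changed together, plants at 7 d were older than those at 0 h, and the hour of sampling is not given in the sources used here, so that cold, light, age and time of day cannot be told apart. The values are CPM, that is, reads of a gene in every 1000000 reads on all genes of the table, and 18609189 to 25952306 reads per library lay on those genes. Replicate libraries were compared gene by gene on the log2(CPM + 1) scale (genes are not independent replicates), and Pearson's r was 0.990 to 0.995, except for 0 h replicate 3, which stood apart from the other 0 h replicates with 0.976 and 0.979. Green-tissue markers were abundant in the warm samples, as a small chain of ribulose bisphosphate carboxylase (Ls4g153980.1) was at 14290 ± 322 CPM and chlorophyll a-b binding protein 16 (Ls2g102941.1) at 1517 ± 91.1 CPM (SD, n = 3). At 7 d these markers were at 2479 ± 77.5 and 358 ± 25.4 CPM (SD, n = 3), and the part of this shift in the level of LsCBF14 was not tested. In whole aerial tissue, fewer cells of a type and less RNA per cell cannot be told apart.

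LsCBF14 was already transcribed in warm-grown plants. At 0 h the 3 libraries were at 8.61, 9.06 and 13.9 CPM. At 4 h in the cold they were at 36.1, 25.1 and 30.5 CPM. All 3 libraries at 4 h were thus above all 3 at 0 h, and the highest 0 h value came from replicate 3, the library that stood apart.

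At 24 h LsCBF14 was lower again, at 16.4, 20.0 and 22.4 CPM. At 7 d the libraries were at 56.6, 44.8 and 52.0 CPM. The 7 d libraries were the highest of the 12, and no value of one time-point lay within the range of another. The profile had 2 high points, one at 4 h and a higher one at 7 d, with a trough between them that stayed above the warm level.

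**Figure D1:**
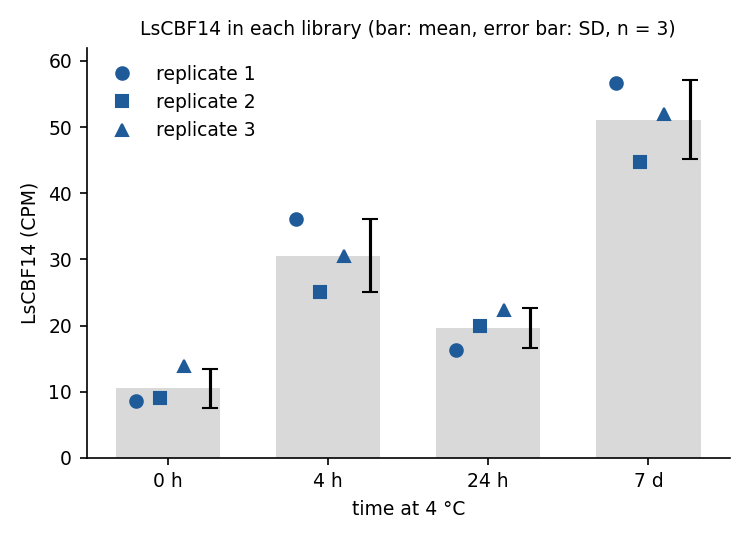
LsCBF14 in CPM (vertical axis) at each time at 4 °C (horizontal axis); symbols are the 3 libraries, bars the mean and error bars the SD. The 7 d libraries sit between 44.8 and 56.6 CPM, above the 4 h libraries at 25.1 to 36.1, the 24 h libraries at 16.4 to 22.4 and the 0 h libraries at 8.61 to 13.9.

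The means in time order, from 0 h to 7 d, were 10.5 ± 2.90, 30.6 ± 5.50, 19.6 ± 3.04 and 51.1 ± 5.96 CPM (SD, n = 3). The cold means were 2.91, 1.86 and 4.86 times the warm one. Without 0 h replicate 3 these ratios were 3.46, 2.22 and 5.78, so the size of every ratio leans on that library. Their order could not change, because all of them are divided by the same warm mean.

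In order of level, 7 d came first, followed by 4 h, 24 h and 0 h. The lowest 24 h library exceeded the highest 0 h library by 2.51 CPM, the lowest 4 h library exceeded the highest 24 h library by 2.70 CPM, and the lowest 7 d library exceeded the highest 4 h library by 8.67 CPM. The first of these gaps was smaller than the SD at either of its time-points, and so was the second. The last was larger than both SDs.

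Reads were numerous enough that counting was the lesser part of the error. The fewest reads were the 168 of 0 h replicate 1, with an exact 95% Poisson interval of 144 to 195, and the most were the 1162 of 7 d replicate 2, with an interval of 1096 to 1231. In time order, counting error alone amounted to 6.99%, 4.21%, 5.03% and 3.06% of the level. The coefficient of variation between replicates was 27.6%, 18.0%, 15.5% and 11.7%, several times as large. The intervals cover counting error only.

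On the log2(CPM + 1) scale, LsCBF14 differed from the warm plants by 1.47 (4 h), 0.86 (24 h) and 2.20 (7 d), with a standard error of 0.185 each from the limma fit of all samples. These differences share the 0 h libraries and are therefore not independent of each other. Between cold time-points the difference was -0.61 from 4 h to 24 h, 1.34 from 24 h to 7 d and 0.73 from 4 h to 7 d. The SD of replicates about their time-point mean was 0.25 on the same scale. The median difference of all genes tested was 0.03, 0.04 and 0.15 in the 3 cold time-points, so a general shift of all genes was small beside that of LsCBF14.

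Set among all 22306 genes tested, 596 genes (2.67%) had a larger log2 difference than LsCBF14 at 4 h, 1819 genes (8.15%) at 24 h and 101 genes (0.453%) at 7 d. Between 24 h and 7 d, 51 genes (0.229%) had a larger log2 difference. Between 4 h and 7 d, 2430 genes (10.9%) did. Of these 5 differences, its place among the genes was thus highest from 24 h to 7 d and lowest from 4 h to 7 d, and both belong to the pattern for which it was selected.

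The order 7 d, 4 h, 24 h, 0 h was not rare by itself. It was that of 849 genes (3.81%), and it ranked 11 among the 24 orders that 4 means can take. A highest mean at 7 d was found for 39.7% of genes. With the added condition that no time-points overlapped, 12 genes were left, LsCBF14 among them. The other 11 had differences from 0 h of 0.55 to 1.60 at 7 d, and the nearest to LsCBF14 was Ls8g153600.1, which went from 0.727 ± 0.139 to 4.27 ± 0.821 CPM between warm plants and 7 d (SD, n = 3). These 12 genes were singled out after their values were seen.

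The size of the late increase depended on what the libraries were scaled to. The study used EIF2a, a translation initiation factor, and IPP2, an isoprenoid enzyme, as reference genes for qRT-PCR. Between warm plants and 7 d, EIF2a went from 77.6 ± 8.80 to 105 ± 2.14 CPM and IPP2 from 40.1 ± 6.73 to 50.9 ± 0.576 CPM (SD, n = 3). Relative to the geometric mean of both, LsCBF14 was, in time order, at 0.189 ± 0.0475, 0.520 ± 0.106, 0.290 ± 0.0626 and 0.698 ± 0.0752 (SD, n = 3), the cold means being 2.75, 1.54 and 3.69 times the warm one. The order of the means was kept. However, the time-points then overlapped, since 0 h replicate 3 was at 0.244 against 0.226 in 24 h replicate 1, and 4 h replicate 1 was at 0.624 against 0.614 in 7 d replicate 2. Under TMM and RLE normalization, which scale libraries by the bulk of their genes, no time-points overlapped, but the gaps were narrower. That between 4 h and 7 d was 3.99 and 3.56 CPM, against 8.67 CPM by library size, and that between 0 h and 24 h was 0.818 and 0.677 CPM.

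The study listed 14 LsCBF genes, and 11 of them have a row of their own in the table. LsCBF2, LsCBF6 and LsCBF13 were not analysed here. The study found LsCBF6 listed as a splicing variant of the LsCBF5 locus. Whether the LsCBF5 row includes LsCBF6 reads is not given in the sources used here. By the study's account, the LsCBF8 sequence was incomplete in the genome. LsCBF13 is the gene closest in identifier to LsCBF14, so its nearest family member by identifier is missing from what follows. LsCBF8, LsCBF9 and LsCBF10 were amplified by the study with common primers, which their similar sequences allow, and how reads matching more than 1 gene were counted is not given in the sources used here, so values of these 3 genes are uncertain.

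All 10 other LsCBF genes had their highest mean at 4 h, where LsCBF14 had its second highest. In each of the 10, every 4 h library was above every 7 d library, whereas in LsCBF14 every 7 d library was above every 4 h library. How many of all genes peaked at 4 h, or separated these time-points in either direction, was not counted here. The ratio of the 7 d mean to the 4 h mean was 1.67 in LsCBF14 and 0.0421 to 0.387 in the others. Under TMM and RLE normalization and with scaling to EIF2a and IPP2, all 10 still peaked at 4 h without overlap with 7 d. For LsCBF14 the 7 d libraries were all above the 4 h libraries under TMM and RLE normalization, but not with scaling to EIF2a and IPP2.

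Among the other LsCBF genes, LsCBF7 was the one closest to LsCBF14 in its late level. In warm plants its libraries were at 3.95, 5.44 and 4.14 CPM, and after 4 h in the cold at 55.2, 67.6 and 56.3 CPM. After 24 h they were at 17.9, 20.8 and 25.8 CPM, and after 7 d at 21.9, 23.0 and 24.4 CPM. Its 24 h and 7 d libraries overlapped, and it was the only other LsCBF gene with a higher mean at 7 d than at 24 h. The log2 difference of LsCBF7 from 0 h was 3.47 at 4 h and 2.14 at 7 d (standard error 0.145), the latter next to the 2.20 of LsCBF14, and from 4 h to 7 d it fell by 1.33 (limma, Benjamini-Hochberg adjusted p = 1.41e-05). The study predicted a truncated protein for LsCBF7.

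The early members behaved otherwise. The warm libraries of LsCBF11 were at 1.03, 1.44 and 1.24 CPM, those of 4 h at 135, 130.2 and 138 CPM and those of 7 d at 22.1, 17.5 and 16.1 CPM. For LsCBF12 these values were 0.154, 0.148 and 0.571 CPM, then 46.9, 46.1 and 49.4 CPM, and finally 2.03, 2.12 and 1.84 CPM. Both were thus nearly silent in warm plants and far below their 4 h level after 7 d, and neither shared a range between 4 h and 7 d. LsCBF10, with at most 2 reads in any 0 h library, reached 34.6, 40.4 and 36.9 CPM after 4 h, at least 251-fold higher than in warm plants when those are set to the floor of 3 reads per library, and was back at 1.55, 1.73 and 2.06 CPM after 7 d.

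The remaining members were at lower levels. LsCBF5 was at 4.86 to 5.38 CPM and LsCBF9 at 5.86 to 6.23 CPM at 4 h. LsCBF3, LsCBF4, LsCBF8 and LsCBF1 did not exceed 2.36 CPM in any library. LsCBF1 was not tested, having too few reads for the filter of 0.5 CPM in 2 samples, and its largest count was 14 reads.

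Calls needed a log2 difference of 1 or more in size and a limma p, Benjamini-Hochberg adjusted over all genes tested, no higher than 0.01. At 4 h, 7 of the 9 other LsCBF genes tested were upregulated, against 5.15% of all genes. At 24 h 6 of 9 were upregulated, against 5.99%, and at 7 d 4 of 9 were, against 6.81%. The members called at 7 d were LsCBF7, LsCBF10, LsCBF11 and LsCBF12, with log2 differences of 2.14, 1.40, 3.12 and 1.23. The median log2 difference of these 9 genes declined over the 3 cold time-points, from 2.66 to 1.62 and 0.85.

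Compared directly between 4 h and 7 d, 7 of the 9 were lower at 7 d, against 6.21% of all genes, and 0 were higher, against 4.14% (limma; 0 also at an unadjusted p under 0.05, in the edgeR quasi-likelihood test and in DESeq2). Their median log2 difference from 4 h to 7 d was -1.61, and the largest was the -4.01 of LsCBF12 (standard error 0.200, adjusted p = 5.59e-08). The others that passed were LsCBF3, LsCBF5, LsCBF7, LsCBF9, LsCBF10 and LsCBF11. The 2 that did not reach the fold threshold, LsCBF4 and LsCBF8, had log2 differences of -0.67 and -0.78. Downregulation relative to 0 h was called for 0 of the 9 at 4 h, 24 h and 7 d by limma, edgeR and DESeq2, and 0 had an unadjusted p under 0.05 in that direction, where 0.592%, 3.55% and 3.41% of all genes were downregulated.

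**Figure D2:**
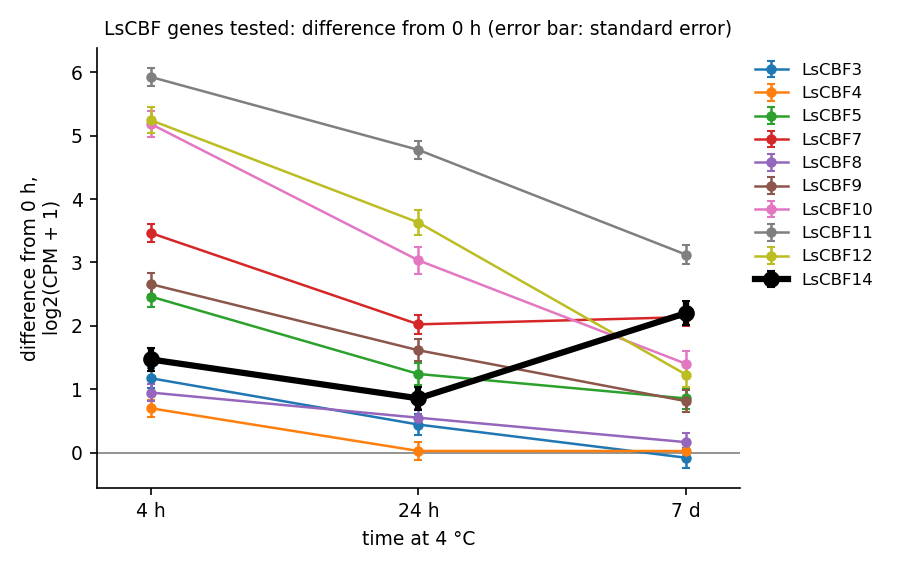
Difference from 0 h on the log2(CPM + 1) scale (vertical axis) at 4 h, 24 h and 7 d at 4 °C (horizontal axis) for the 10 LsCBF genes that passed the filter, with standard errors; LsCBF14 is the thick black line. LsCBF14 goes from 1.47 at 4 h to 2.20 at 7 d, whereas LsCBF11 goes from 5.93 to 3.12 and LsCBF12 from 5.24 to 1.23.

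The reads on the LsCBF genes were divided very differently at the 4 time-points. In the warm, LsCBF14 held 60.4%, 55.0% and 66.9% of the reads on the 11 genes. At 4 h it held 11.2%, 7.75% and 9.32%, and at 24 h 14.6%, 17.2% and 13.7%. At 7 d it held 52.9%, 48.8% and 52.8%, so that about every other read on the family was again one of LsCBF14. These are shares of reads that were not divided by gene length, and so they are not shares of transcripts.

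The mean share was, in time order, 60.8 ± 5.98%, 9.43 ± 1.74%, 15.2 ± 1.84% and 51.5 ± 2.36% (SD, n = 3). The sum over the 11 genes was 17.1 ± 3.28, 324 ± 2.80, 131 ± 28.9 and 99.01 ± 7.62 CPM (SD, n = 3). Without LsCBF14 the sum was 6.64 ± 0.911, 294 ± 7.05, 111 ± 26.3 and 47.9 ± 2.14 CPM (SD, n = 3). The low share at 4 h and 24 h thus went with a high sum of the other members, and LsCBF14 itself was above its warm level in every cold library.

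Behind LsCBF14, LsCBF7 held the next largest share in the warm, 20.0% to 33.0% of the reads, and LsCBF11 held 5.98% to 8.71%. At 4 h LsCBF11 held 40.2% to 42.1%, LsCBF7 17.1% to 20.9%, LsCBF12 14.2% to 15.1% and LsCBF10 10.8% to 12.5%. At 7 d LsCBF7 held 20.5%, 25.03% and 24.9% and LsCBF11 20.6%, 19.1% and 16.3%, so that LsCBF7 held more in 2 of the 3 libraries, while LsCBF10 and LsCBF12 did not exceed 2.31%.

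**Figure D3:**
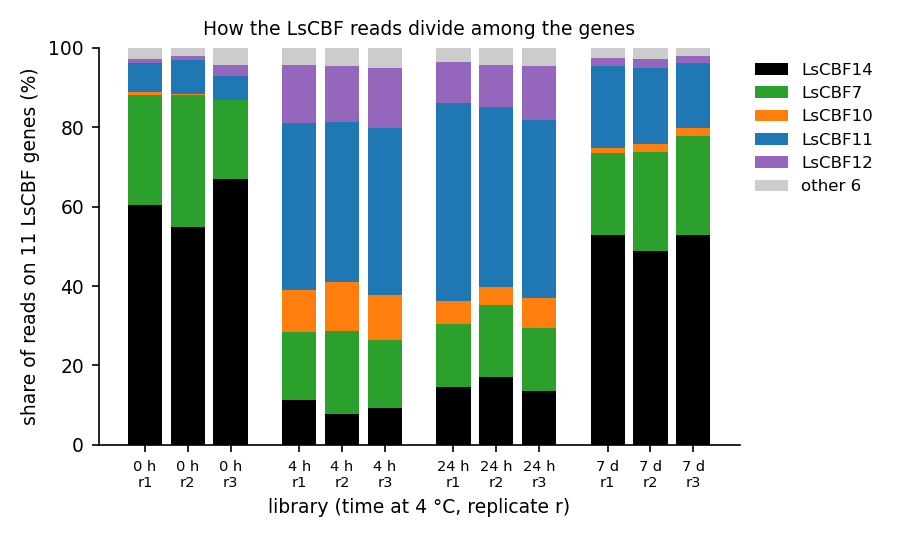
Share of the reads on 11 LsCBF genes, in percent (vertical axis), that fell on each gene in each of the 12 libraries (horizontal axis); the grey segment pools the other 6 genes. LsCBF14, in black, holds 55.0% to 66.9% at 0 h, 7.75% to 11.2% at 4 h, 13.7% to 17.2% at 24 h and 48.8% to 52.9% at 7 d.

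The wider group III of AP2/ERF factors holds the nearest relatives outside the CBF/DREB1 cluster, among them the DREB-type groups IIIa, IIIb, IIId and IIIe. The study listed 26 such genes by sequence, of which 15 have a row and 12 were tested. At 4 h 2 of the 12 were upregulated, against 5.15% of all genes. These were Ls7g11381.1 of group IIId, from 7.45 ± 0.776 to 18.48 ± 2.17 CPM, and Ls7g39881.1 of group IIIe, from 1.08 ± 0.274 to 3.32 ± 0.436 CPM (SD, n = 3). The latter missed the threshold in 5 of the 6 fits that left out a 0 h or 4 h library. At 24 h and 7 d 0 of the 12 passed in limma in either direction, where 5.99% and 6.81% of all genes were upregulated and 3.55% and 3.41% downregulated. At 7 d 6 had an unadjusted p under 0.05 for an increase and 2 for a decrease, and edgeR called 1 higher and 0 lower and DESeq2 1 higher and 1 lower. At 24 h these numbers were 5 and 1, with 1 higher and 0 lower in edgeR and in DESeq2. Of all genes, edgeR called 1413 higher and 1701 lower at 7 d, and 1601 and 1397 at 24 h. DESeq2 called 1367 and 1833 at 7 d, and 1602 and 1498 at 24 h. The share of all genes at an unadjusted p under 0.05 was not counted here. Among the 12, the largest difference at 7 d was that of Ls1g34721.1 of group IIIe, 1.00 on the log2 scale, just under the threshold. Directly from 4 h to 7 d, Ls2g85720.1 of group IIIa rose by 1.06 and Ls6g13121.1 of group IIIb fell by 1.05 on the log2 scale (limma, adjusted p = 4.94e-05 and 0.000207), 1 of 12 each, against 4.14% of all genes higher and 6.21% lower.

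Identifier numbers roughly follow position within a linkage group, and the 10 rows nearest in number on each side of LsCBF14 were taken as its approximate neighbours. Of these 20 rows, 16 were tested, and 1 was upregulated at 4 h, a share close to the 5.15% of all genes. This gene, Ls9g114580.1, was, in time order, at 7.89 ± 1.58, 37.1 ± 2.504, 14.6 ± 0.212 and 8.27 ± 0.594 CPM (SD, n = 3), a profile without a late rise. Without 0 h replicate 3, 3 neighbours were upregulated at 4 h. None of the 16 was called at 7 d by limma, against 6.81% of all genes upregulated and 3.41% downregulated. An unadjusted p under 0.05 was found for 6 higher and 1 lower, and edgeR called 1 higher and 0 lower and DESeq2 0. At 24 h limma called 0, against 5.99% and 3.55% of all genes, with 5 higher and 0 lower at an unadjusted p under 0.05 and 1 higher and 0 lower in edgeR and in DESeq2. Their median log2 difference at 7 d was 0.14, close to the 0.15 of all genes. From 4 h to 7 d, 2 neighbours fell, Ls9g114580.1 by 2.04 and Ls9g115301.1 by 1.13 on the log2 scale, against 6.21% of all genes. In limma 0 neighbours rose, against 4.14%, with 4 at an unadjusted p under 0.05 and 1 each in edgeR and DESeq2. Of all genes, edgeR called 958 and DESeq2 932 higher from 4 h to 7 d. Their counts of all genes at 24 h and 7 d relative to 0 h are those given above for group III. The share of all genes at an unadjusted p under 0.05 was not counted here.

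The genes most like LsCBF14 in profile were ranked by Pearson's r of log2(CPM + 1) over the 12 libraries, over 19691 genes that averaged 1 CPM or more. These libraries fall into 4 time-points of 3, so r follows both the time-point means and the spread within them, and it is given as a description. For 43 genes (0.218%) r was at least 0.9, and for 19 it was at most -0.9. The highest was that of Ls5g170380.3, with r of 0.966 and Spearman's rho of 0.972, which went from 0.836 ± 0.183 CPM in warm plants to 1.98 ± 0.204 CPM after 7 d (SD, n = 3). It was followed by Ls9g42481.2 with r of 0.953, which went from 14.7 ± 0.610 to 39.2 ± 0.555 CPM over the same span (SD, n = 3). Next were Ls4g111040.1, Ls7g76681.1, Ls2g68860.1, Ls8g153600.1, Ls5g125561.1, Ls2g111980.3, Ls3g60021.1 and Ls4g88460.3, with r of 0.940 to 0.949. Only Ls3g60021.1 among the 10 has a description in the lists used here, Probable galacturonosyltransferase-like 3. It was at 2.81 ± 0.253, 6.02 ± 0.799, 4.87 ± 0.796 and 8.02 ± 1.54 CPM at the 4 time-points (SD, n = 3).

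**Figure D4:**
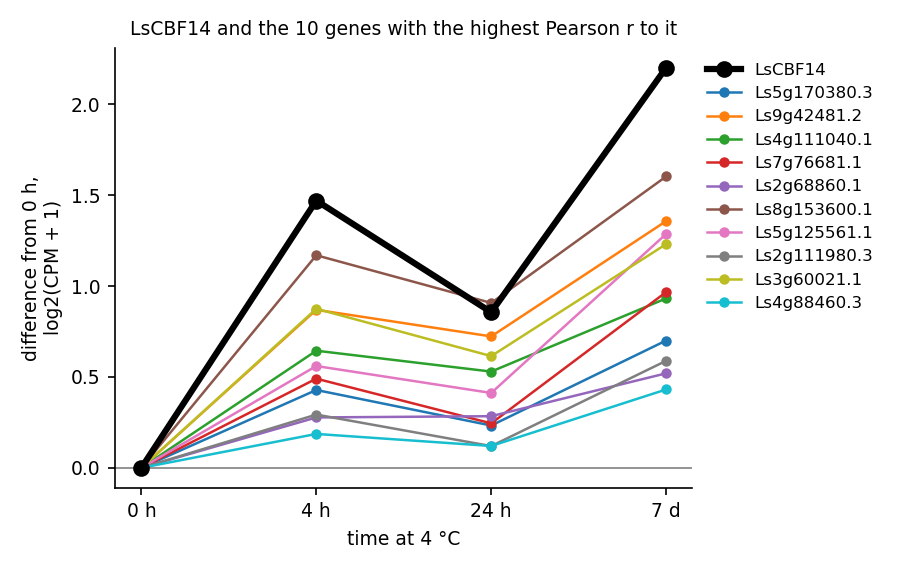
Difference from 0 h on the log2(CPM + 1) scale (vertical axis) against time at 4 °C (horizontal axis) for LsCBF14, the thick black line, and the 10 genes with the highest Pearson r to it. All 10 are highest at 7 d, which choosing them by r to LsCBF14 favours. Their differences at 7 d, 0.43 to 1.60, are smaller than the 2.20 of LsCBF14.

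A high r was not a matter of equal size. By the Euclidean distance between the 3 log2 differences from 0 h, which share the 0 h libraries, the 10 nearest genes were others, with only Ls8g153600.1 on both lists. The nearest, Ls8g11840.1, was at a distance of 0.32, but its level at 7 d was 6.03 ± 4.85 CPM (SD, n = 3) and its r was 0.719. Ls2g109480.3, described as Elongation factor 1-alpha, was at a distance of 0.42 and went from 11.3 ± 1.11 CPM in warm plants to 45.6 ± 10.8 CPM after 7 d (SD, n = 3). The rest were Ls5g186481.1, Ls6g22621.1, Ls8g118500.2, Ls8g125440.1, Ls8g17320.1, Ls8g100200.1 and Ls3g9520.1, described as a disease resistance response protein. Among the other LsCBF genes, r to LsCBF14 ran from 0.151 for LsCBF3 to 0.695 for LsCBF7, and none reached 0.9. LsCBF1, LsCBF3, LsCBF4 and LsCBF8 averaged under 1 CPM, so they were not among the genes ranked and their r rests on few reads. The lowest r of a ranked member was the 0.322 of LsCBF12.

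4 small lists, picked by gene description from the study's table of COR genes, were set beside LsCBF14, as the dehydrin and sugar genes are the kind that CBF factors act on in Arabidopsis. The table holds genes that the study selected as cold-regulated on these samples, and the lists were drawn from it for the present description, so their counts are not independent evidence of direction. The 12 cold protein genes encode dehydrins, late embryogenesis abundant proteins, enzymes of sugar or proline metabolism and Cold shock protein 1. Of the 12 genes, 7 were upregulated at 4 h, against 5.15% of all genes, and 10 at both 24 h and 7 d, against 5.99% and 6.81%. Their median log2 difference was 1.21, 3.27 and 2.33 at these times. Cold-shock protein CS120 (Ls3g76921.1), a dehydrin, was at 0.923 ± 0.0711, 14.2 ± 0.345, 1007 ± 41.8 and 176 ± 17.1 CPM, and Dehydrin Rab18 (Ls3g74801.1) at 0.442 ± 0.171, 2.27 ± 0.263, 296 ± 37.8 and 114 ± 33.4 CPM at the 4 time-points (SD, n = 3). Both were highest at 24 h, when LsCBF14 was at its trough in the cold, but not every member was. Dehydrin Xero 1 and Cold shock protein 1 had their highest means at 7 d. These were 13.3 ± 1.12 and 35.6 ± 1.62 CPM (SD, n = 3). Beta-amylase 3 and the Lea14 homolog had their highest means at 4 h, and the remaining members at 24 h. From 24 h to 7 d the median log2 difference of the 12 was -0.87, against 0.11 for all genes tested. The largest r to LsCBF14 in the list was the 0.825 of Dehydrin Xero 1.

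Of 7 clock genes, upregulation was called for 5 (4 h), 6 (24 h) and 4 (7 d), against 5.15%, 5.99% and 6.81% of all genes, and downregulation for 1 at 24 h, against 3.55%. LHY (Ls3g140720.1), a morning-expressed clock factor, was at 5.72 ± 1.03, 70.8 ± 9.30, 52.8 ± 5.71 and 30.2 ± 2.56 CPM at the 4 time-points (SD, n = 3). All 3 listed cold regulators were upregulated at 4 h, against 5.15% of all genes. They were the 2 genes described as ZAT10, a zinc finger repressor, with log2 differences of 2.62 (Ls1g24181.1) and 1.12 (Ls4g130320.1), and MYB15, which represses CBF genes in Arabidopsis, with 1.39. At 24 h only the first of these passed, with 1.44, against 5.99% of all genes upregulated. At 7 d 0 passed in limma, edgeR or DESeq2 and 0 had an unadjusted p under 0.05. There limma called 6.81% of all genes upregulated and 3.41% downregulated. From 4 h to 7 d all 3 fell past the threshold in limma, against 6.21% of all genes, with log2 differences of -1.10 to -2.24. LsCBF14 was higher at 7 d, the pattern for which it was selected. The calls of MYB15 and of Ls4g130320.1 at 4 h were weak, as MYB15 missed the threshold in 4 of the 6 fits that left out a 0 h or 4 h library and with a pseudocount of 0.1, and Ls4g130320.1 missed it without 4 h replicate 3 and with that pseudocount. Among 11 heat-related genes, upregulation was called for 1, 2 and 0 at the 3 cold time-points and downregulation for 1, 1 and 3. Of all genes, 5.15%, 5.99% and 6.81% were upregulated and 0.592%, 3.55% and 3.41% downregulated. At 7 d 2 were higher and 9 lower at an unadjusted p under 0.05, and edgeR and DESeq2 each called 0 higher and 8 lower. These tools also called more of all genes lower at 7 d, 1701 in edgeR and 1833 in DESeq2, against 760 in limma. Genes called higher numbered 1413 and 1367, against 1518. The share of all genes at an unadjusted p under 0.05 was not counted here. The 3 heat-related genes called lower at 7 d by limma became 0 without 7 d replicate 2 or 3. They became 1 without 0 h replicate 2 or 3 and 6 without 4 h replicate 1.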

How the data were processed

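RNA-seq of 12 lettuce samples was used, 4 time-points with 3 replicates, grouped by the sample titles. Per the labels and the study's methods, the authors mapped 150 bp paired-end reads to the lettuce genome version 8 with STAR (version 2.5.2) and counted them with featureCounts. They deposited CPM values for 23933 genes, scaled by library total only, since the columns sum to 1000000 and whole multiples of 1 read, within 0.01, made up 100% of their entries. Strand and multi-mapping settings are not given in the sources used here. Whole reads were recovered, 18609189 to 25952306 per library, and 3 reads were 0.116 to 0.161 CPM. The labels call the samples separate replicates but do not say whether they came from separate plants or pools.

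In R 4.3.3, limma (version 3.58.1) was fitted to log2(CPM + 1) of the 22306 genes that reached 0.5 CPM in 2 or more samples. All 4 time-points shared one estimate of the spread. Calls required a log2 fold change of 1 or more in size, with p no higher than 0.01 after Benjamini-Hochberg adjustment. Adding 1 CPM makes the log2 differences of genes with few reads smaller than the ratios of their means. A fold against a time-point whose libraries all had at most 3 reads was computed against that floor per library. The steps were tested on simulated data. Named genes were LsCBF14, the other LsCBF genes, the 10 highest by r and the 10 nearest by distance, and at most 5 called members of each list with the largest change. Of these, the text gives those that bear on LsCBF14. LsCBF14 and the lists were chosen with earlier results of these data known. Lists came from the study's gene tables and identifiers. Of the table's identifiers, 0 matched the RefSeq table. Alternatives were a pseudocount of 0.1, no filter, TMM and RLE normalization, only the 2 time-points compared, a replicate block, edgeR (version 4.0.16) and DESeq2 (version 1.42.0) on the recovered reads, and leaving out each replicate. Scaling to EIF2a and IPP2 was added after seeing the data.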

Additional observations from a re-analysis of the deposited data

How the results depend on the processing

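The 6 log2 differences of LsCBF14 kept their sign under every alternative run, but for several alternatives this was fixed in advance. No filter, the 2 time-points alone and the replicate block cannot move these differences. As no time-points overlapped in CPM, neither a pseudocount of 0.1 nor leaving out 1 replicate could reverse a sign. The differences moved by less than the SD between replicates, 0.25, except with scaling to EIF2a and IPP2, an alternative chosen after seeing the data. With that scaling the difference was 0.58 at 24 h, 1.82 at 7 d and 0.43 from 4 h to 7 d. Under TMM normalization they were 1.42, 0.82 and 2.04 at 4 h, 24 h and 7 d, and under RLE normalization 1.42, 0.80 and 2.01. Leaving out 1 replicate gave 1.35 to 1.67 at 4 h, 0.74 to 1.05 at 24 h, 2.09 to 2.40 at 7 d, -0.74 to -0.49 from 4 h to 24 h, 1.23 to 1.44 from 24 h to 7 d and 0.60 to 0.85 from 4 h to 7 d. The other LsCBF genes upregulated numbered 7 to 8 at 4 h, 6 at 24 h and 4 to 5 at 7 d when 1 replicate was left out, and 9, 7 and 6 with a pseudocount of 0.1, in edgeR and in DESeq2.

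Of the 10 genes most like LsCBF14, 9 were kept with a pseudocount of 0.1, 7 under TMM and RLE normalization, 4 by Spearman's rho and 0 by Pearson's r over the 4 time-point means, and 5 to 9 when 1 replicate was left out, so that this list should be read as a sample of similar genes.

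Counts in the small lists moved by 1 or a few genes. Group III relatives upregulated at 4 h numbered 1 without the filter and 1 to 2 with 1 replicate left out. At 24 h they numbered 1 with a pseudocount of 0.1, in edgeR and in DESeq2, and at 7 d 2, 1 and 1 with these settings and 0 to 1 with 1 replicate left out, and DESeq2 called 1 lower at 7 d. Neighbours upregulated at 4 h numbered 1 to 3 and at 24 h 0 to 1 with 1 replicate left out. At 24 h there was 1 with a pseudocount of 0.1, in edgeR and in DESeq2, and at 7 d 1 with a pseudocount of 0.1 and in edgeR. One cold protein gene and 1 clock gene were called lower at 7 d under TMM and RLE normalization, in edgeR, in DESeq2 and with scaling to EIF2a and IPP2. Cold regulators upregulated at 4 h numbered 1 with a pseudocount of 0.1 and 1 to 3 with 1 replicate left out. Heat genes upregulated at 24 h numbered 1 with scaling to EIF2a and IPP2. Those downregulated at 24 h numbered 2 with a pseudocount of 0.1, in edgeR, in DESeq2 and with that scaling, and 0 to 1 with 1 replicate left out. Those downregulated at 7 d numbered 7 with a pseudocount of 0.1, 1 without the filter, 5 under TMM, RLE, the 2 time-points alone and scaling to EIF2a and IPP2, 8 in edgeR and DESeq2, and 0 to 6 with 1 replicate left out. The causes were not tested. Of the 82 differences of single list genes that were called, 12 fell short of the threshold in at least 1 alternative and 0 changed sign.

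Over all genes, 1518 were upregulated and 760 downregulated at 7 d, against 988 and 1039 under TMM, 918 and 1103 under RLE and 549 and 1726 with scaling to EIF2a and IPP2. Downregulated genes at 7 d numbered 1169 with a pseudocount of 0.1, 1701 in edgeR and 1833 in DESeq2. From 4 h to 7 d, 924 were higher and 1386 lower, against 625 and 1629 under TMM, 597 and 1664 under RLE and 367 and 2176 with scaling to EIF2a and IPP2, and edgeR and DESeq2 called 2264 and 2386 lower. Downregulated genes at 4 h rose from 132 to 213 with a pseudocount of 0.1, 280 in edgeR, 330 in DESeq2 and 206 without 0 h replicate 3. At 24 h they rose from 791 to 1191, 1397 and 1498 with the first 3 of these settings and to 1478 with scaling to EIF2a and IPP2.

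Replicate numbers recur at each time-point, but nothing in the labels pairs the samples. Deviations of same-numbered samples correlated with r of -0.22 to 0.19, above 0.1 in 6 of 18 pairs, and a sample was closest to its own number in 19 of 36 comparisons. With the replicate block, the log2 difference of LsCBF14 at 7 d was 2.20, a value that a block cannot move in this balanced design and that says nothing of pairing. Then 7, 6 and 4 other LsCBF genes were upregulated at 4 h, 24 h and 7 d, and 1531 genes were upregulated at 7 d.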
